A study of Homo sapiens with 2 samples.

Results

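The genes described here encode the proteins by which a cell holds on to its surroundings and to its neighbours, and the growth-factor and guidance systems that act at the same surface. They comprise matrix proteins (FN1, THBS, FBN, collagens and laminins), integrins, CD44, PTK2, the cadherin families, semaphorins with neuropilins and plexins, Notch and Jagged, ADAM and MMP proteases, the TGF-beta, BMP and SMAD genes, and serpins. They were chosen by gene symbol, with earlier results of these data known. Of the 1658 gene symbols with a peak in the catenin immunoprecipitation (IP), 26 belonged to them, with 44 of the 2440 peaks. The study sequenced RNA recovered with an IP, which the title writes as B-catenin, from MDA-MB-231 cells, together with an input from the same line. MDA-MB-231 is an established human breast cancer line of mesenchymal type, and the labels give no genotype, treatment or time for either library. Each group is 1 library of 1 cell line. The values below all come from the IP library, while the input library on its own was not analysed here. No test across samples was possible, and intervals cover counting error only.

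In the matrix, fibronectin, thrombospondins, collagens and laminins form the scaffold that integrins bind. An integrin is a pair of an alpha and a beta subunit, and focal adhesion kinase (PTK2) together with talin and vinculin relays its attachment to the actin cytoskeleton. Cadherins join cells to each other, and the cytoplasmic tails of classical cadherins bind beta-catenin, the protein named in the IP. TGF-beta and BMP receptors phosphorylate SMAD proteins, which then act in the nucleus, while Jagged ligands on a neighbouring cell activate Notch receptors, which ADAM proteases cleave.

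For each gene the deposited table gives peaks along an Ensembl transcript. A tag is a sequenced read counted in a peak, and the fold is the enrichment that the authors' peak caller gave to that peak. Of several listed transcripts of a gene, the one carrying most tags stands for it. Tags of a gene are the sum over its peaks, density is tags per kb of peak, and the fold quoted for a gene belongs to the peak where it was highest. The table lists only peaks past the authors' threshold, so a gene without a peak in it may still have been present in the IP. The files give no library total, so depth is unknown. From tags alone, a greater amount of an mRNA in the cells and a greater recovery of it in the IP cannot be told apart. The 26 genes carried 2320 tags, or 1.73% (exact binomial interval 1.67 to 1.81%) of the 133739 tags in the list with 1 transcript per gene. The fixed marker lists of the line gave a peak for 4 of 12 mesenchymal and basal genes (FN1, EGFR, ZEB1 and MSN), for 0 of 11 luminal epithelial genes and for 0 of 5 immune and blood genes. A list with so few genes of any kind does not tell cell types apart.

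As a set, the adhesion and growth-factor genes had a peak in the list about as often as protein-coding genes in general. The reference table holds 372 protein-coding symbols that match the symbol pattern of these families, and 26 of them, 6.99%, had a peak (exact binomial interval 4.62 to 10.1%). Of all 20056 protein-coding symbols, 8.11% had a peak, which lies inside that interval. The pattern also catches some symbols from outside the families, and without them the share was 7.45%. By family, 3 of 12 laminins, 2 of 8 matrix glycoproteins and 2 of 8 SMADs had a peak, each 25%, with intervals that reach well below the value for all symbols. Collagens had 3 of 44, integrins 2 of 30, semaphorins 2 of 20, and the ADAM and ADAMTS group 2 of 45. Cadherins gave 1 of 23 and matrix metalloproteinases 1 of 25. Protocadherins gave 0 of 66 (interval 0 to 5.44%), serpins 0 of 34 and CELSR cadherins 0 of 3. The upper bound for protocadherins lies below 8.11%, but many of these genes are clustered copies that share exons, so they are not independent counts. CD44, the hyaluronan receptor, had no peak in the list, and neither did any TGF-beta ligand.

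**Figure D1:**
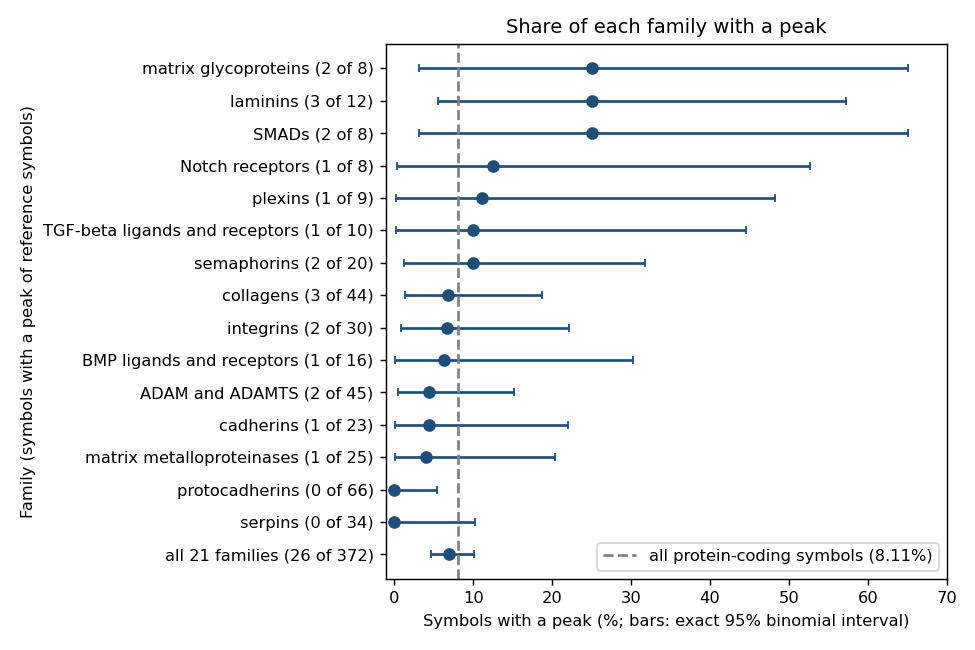
Percentage of the reference symbols of each family with a peak in the catenin IP, for the families with at least 8 reference symbols and, in the last line, all 21 families; bars are exact 95% binomial intervals and the dashed line is the 8.11% of all protein-coding symbols. The dashed line crosses every interval except that of the protocadherins, which ends at 5.44%.

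Among genes with a peak, the 26 were close to the rest in median tags, fold and density. Their median was 44 tags, against 41 for the 1632 other genes, and their median fold was 8.10, against 7.52. Their median density was lower, at 27.8 tags per kb against 29.8. Of the 26 genes, 15 lay above the median fold of the other genes and 10 above their median density. A fold of at least 10 was reached by 7 of the 26, or 26.9%, where 30.3% of all genes with a peak reached it. A total of at least 100 tags was reached by 6 of the 26 (FAT1, FN1, ITGA6, LAMC1, NRP1 and THBS1), or 23.1%, where 21.4% of all genes did. A score of at least 50 was reached by 19 of the 26, or 73.1%, where 69.7% of all genes with a peak reached it. At a score of at least 100 it was 9 of the 26, or 34.6%, where 39.4% of all genes remained. Taken over the reference symbols, these minimums left 5.11% and 2.42% of the families, against 5.64% and 3.21% of all protein-coding symbols. The score is a column of the authors that has lost its name, and it was used only to filter peaks. More than 1 peak was found in 9 of 26 genes, 34.6%, against 31.5% of all genes. At 3 or more peaks the share was 23.1%, 6 genes, where the share over all genes was 9.95% and the interval of the 6 ran from 8.97 to 43.6%. The 6 were FAT1, ITGA2, LAMC1, NOTCH2, PLXNA2 and SMAD3. Some of their peaks were weak: the lowest score in a gene ran from 31.59 in ITGA2 to 54.2 in SMAD3. The minimum in the list is 30.

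**Figure D2:**
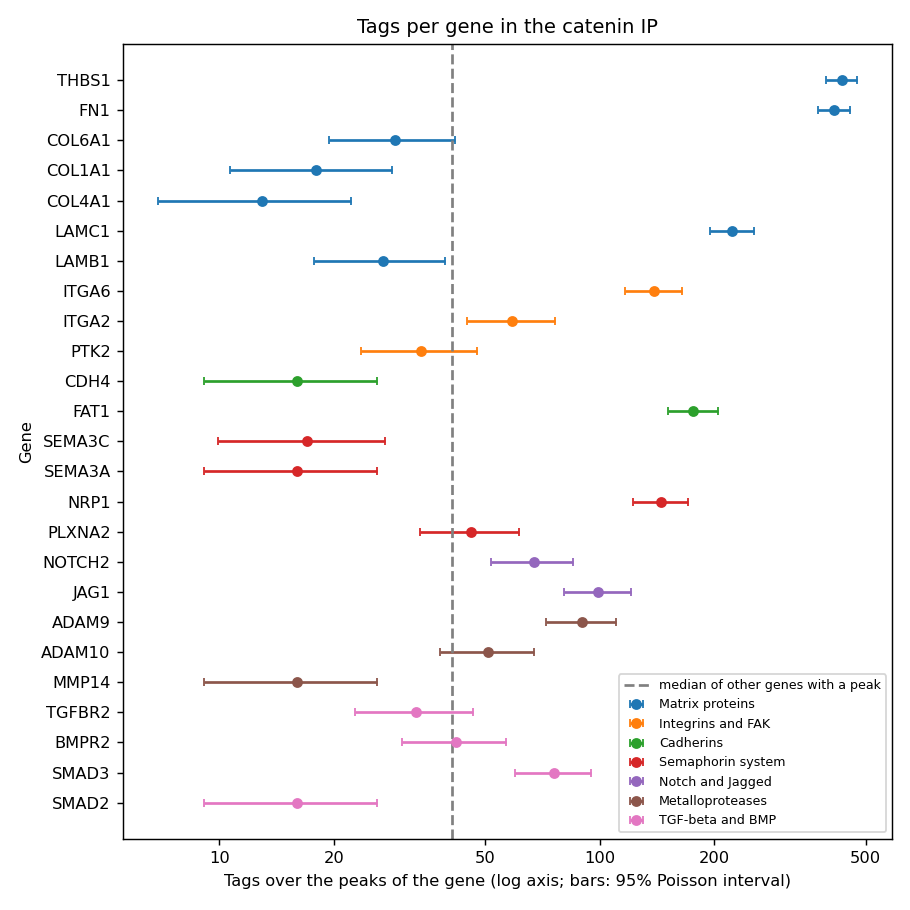
Tags over the peaks of 25 of the 26 genes in the catenin IP library, ordered by role, on a log axis; bars are 95% Poisson intervals and the dashed line is the median of the other genes with a peak, 41 tags. THBS1 and FN1, with 433 and 413 tags, stand to the right of the other genes drawn, and COL4A1, with 13, stands farthest left.

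The matrix proteins held both the highest and the lowest tag counts of the 26. THBS1, which encodes thrombospondin-1, a secreted glycoprotein that binds matrix and can activate latent TGF-beta, had 433 tags (Poisson interval 393 to 476). All lay in 1 peak of ENST00000260356, from nt 239 to 5492. Its density of 82.4 tags per kb was the highest of the 26 and ranked 71 among the 1658 genes. FN1, which encodes fibronectin, had 413 tags (374 to 455) in 1 peak of ENST00000323926, from nt 2 to 8007, at 51.6 tags per kb. THBS1 was 1.60 times as dense as FN1 (interval 1.39 to 1.83), whereas FN1 had the higher fold, 18 against 9.04 for THBS1. These 2 genes together held 36.5% of the tags of the 26.

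Laminins are trimers of an alpha, a beta and a gamma chain that build the basement membrane. LAMC1, the gamma-1 chain, had 223 tags (195 to 254) in 3 peaks of ENST00000258341, at 61.1 tags per kb. The peak at nt 3179 to 5534 held 190 of them and had the highest fold of all 26 genes, 20.43. The peaks at nt 917 to 1530 and nt 2341 to 3017 held 15 and 18 tags, at folds of 6.95 and 7.52. The large peak was 3.15 times as dense as the small ones together (2.17 to 4.72), but it was picked as the densest, so a ratio above 1 was fixed by the choice and the interval takes no account of it. LAMB1, the beta-1 chain that pairs with gamma-1, had 27 tags (17.8 to 39.3) at nt 3814 to 4821 of ENST00000222399 and a fold of 6.37. LAMC1 was 2.28 times as dense as LAMB1 (1.53 to 3.54). No laminin alpha chain had a peak in the list.

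The 3 collagen genes were all low. COL6A1, a chain of the beaded-filament collagen VI, had 29 tags (19.4 to 41.6) at nt 428 to 1417 of ENST00000361866, with a fold of 7.98. COL1A1, the main chain of fibrillar collagen I, had 18 tags (10.7 to 28.4) at nt 2205 to 3050 of ENST00000225964, with a fold of 5.79. COL4A1, of the basement membrane network, had 13 tags (6.92 to 22.2) at nt 656 to 1192 of ENST00000375820, with a fold of 4.63. In density they ran from 21.3 to 29.3 tags per kb, and COL6A1 over COL1A1 gave a ratio of 1.38 with an interval of 0.739 to 2.63, so their order is not resolved at this depth.

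The integrin genes with a peak were ITGA6 and ITGA2, 2 of 30 symbols or 6.67% (exact binomial interval 0.818 to 22.1%), where 8.11% of all protein-coding symbols had one. Of the 30 symbols, 18 are alpha subunits and 8 are numbered beta subunits, and the rest were caught by the pattern. ITGA6 and ITGA2 both encode alpha subunits, and with so few genes the absence of a beta subunit is not resolved from that share. ITGA6, the alpha subunit of laminin-binding integrins, had 139 tags (117 to 164) in 1 peak of ENST00000264107, from nt 387 to 4246, with a fold of 11.15. ITGA2, the alpha subunit of a collagen receptor, had 59 tags (44.9 to 76.1) in 3 peaks of ENST00000296585. They lay at nt 662 to 1779, 2512 to 3491 and 3831 to 4557, held 26, 19 and 14 tags, and had folds of 8.68, 5.79 and 6.95. ITGA6 was 1.72 times as dense as ITGA2 (1.26 to 2.38). PTK2, the focal adhesion kinase that acts on the inner side of integrins, had 34 tags (23.5 to 47.5) at nt 78 to 1370 of ENST00000340930. Its fold of 4.65 ranked 1502 of 1658.

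The cadherin families covered by the chosen symbols contributed 2 genes. FAT1, a giant atypical cadherin, had the most peaks of the set, 6 on ENST00000441802, spread from nt 214 to 12777 and covering 48.8% of that span. Together they held 176 tags (151 to 204). From the 5′ end the peaks held 35, 22, 29, 29, 44 and 17 tags, at folds of 11.58, 7.52, 10.42, 6.95, 8.10 and 6.95. The first peak, at nt 214 to 831, was the densest, at 56.6 tags per kb against 25.6 in the other 5 together, a ratio of 2.21 (1.48 to 3.22). That peak was picked as the densest of 6, so a ratio above 1 was fixed by the choice and the interval takes no account of it. CDH4, the classical cadherin R-cadherin, had 16 tags (9.15 to 26.0) at nt 78 to 790 of ENST00000614565, with a fold of 8.10. It was the only classical cadherin listed. CDH1 and CDH2, which encode E- and N-cadherin, had no peak in the list.

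**Figure D3:**
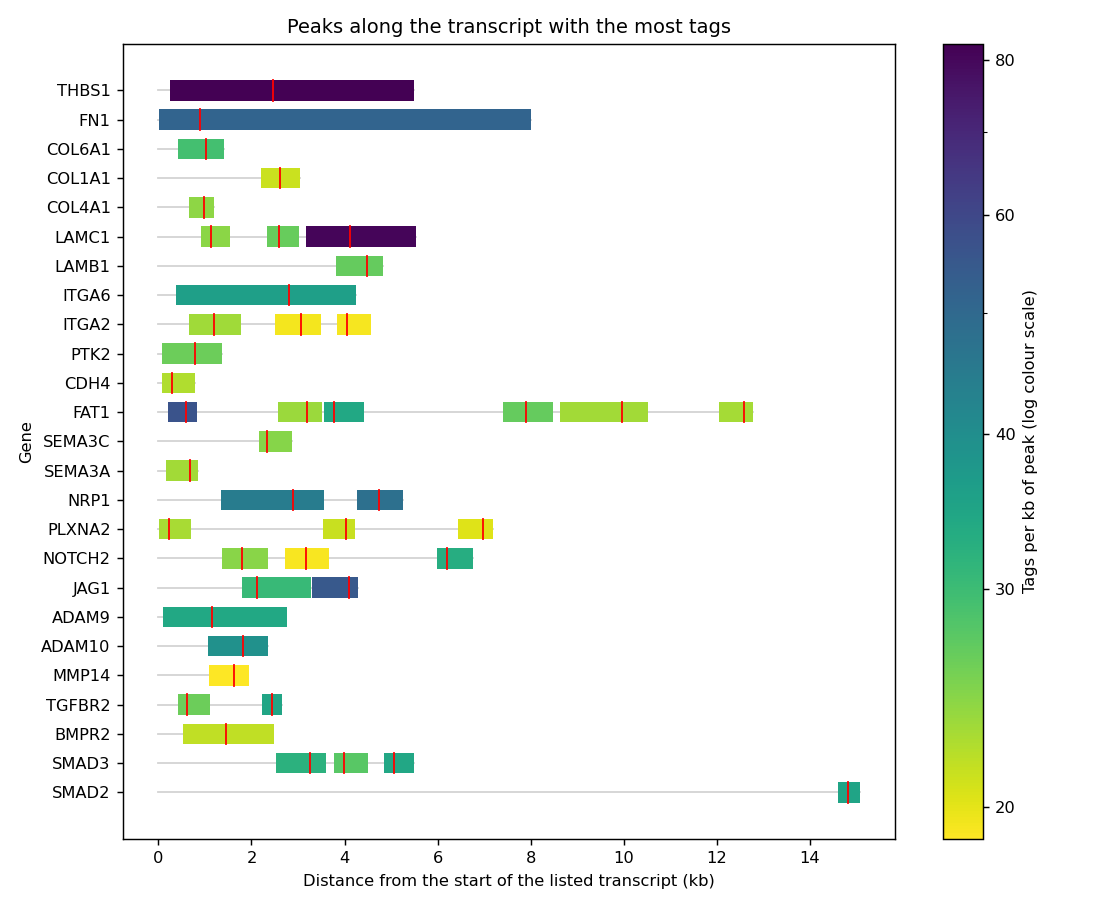
Peaks of 25 of the 26 genes along the transcript with the most tags, as distance from the transcript's start in kb; each box is a peak, its colour gives tags per kb on a log scale, the red line is the summit and the grey line joins the start to the last peak. THBS1 and FN1 each carry a single long peak, FAT1 carries 6 separate peaks, and the only SMAD2 peak starts at nt 14611.

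In the semaphorin system, secreted class 3 semaphorins bind neuropilin, and plexin carries the signal into the cell. All 3 layers were represented. SEMA3C had 17 tags (9.90 to 27.2) at nt 2171 to 2861 of ENST00000265361, with a fold of 5.21, and SEMA3A had 16 (9.15 to 26.0) at nt 165 to 857 of ENST00000265362, with a fold of 6.37. NRP1, the shared receptor neuropilin-1, which also binds VEGF, stood higher. It had 145 tags (122 to 171), of which 98 lay at nt 1353 to 3553 and 47 at nt 4270 to 5248 of ENST00000265371, with folds of 13.30 and 13.75. PLXNA2, a plexin that pairs with neuropilin, had 46 tags (33.7 to 61.4) in 3 peaks of 16, 15 and 15 tags on ENST00000367033, at folds of 5.79, 8.10 and 5.79. NRP1 was 2.12 times as dense as PLXNA2 (1.51 to 3.02) and 1.97 times as dense as SEMA3A (1.18 to 3.55).

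The Notch receptor NOTCH2 and the ligand JAG1 both had peaks. JAG1 had 99 tags (80.5 to 121), with 45 at nt 1796 to 3271 and 54 at nt 3301 to 4283 of ENST00000254958. The folds of these peaks were low, 3.59 and 5.79. NOTCH2 had 67 tags (51.9 to 85.1) in 3 peaks of ENST00000256646 at nt 1375 to 2350, 2728 to 3665 and 5997 to 6756. They held 24, 18 and 25 tags at folds of 6.95, 4.05 and 9.84. JAG1 was 1.61 times as dense as NOTCH2 (1.17 to 2.22), while NOTCH2 had the higher fold. The NOTCH2NL genes are near-identical partial copies of NOTCH2. None of them had a peak, but whether reads were shared between the copies is not known, so the NOTCH2 values are uncertain to that extent. The list fixed for other Notch pathway genes had a peak in 6 of 22 cases, 27.3%, where 8.11% of all protein-coding symbols did. It was drawn up with earlier results of these data known, so this share is a description. Among them SPEN, which encodes a corepressor, had 272 tags at a fold of 14.47. RBPJ, the DNA-binding partner of Notch, had 35 tags at a fold of 6.37.

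Among the membrane proteases, ADAM9 had 90 tags (72.4 to 111) in a peak at nt 103 to 2752 of ENST00000487273, with a fold of 4.17, the lowest of the 26. ADAM10, which sheds the ectodomain of Notch and of classical cadherins, had 51 tags (38.0 to 67.1) at nt 1055 to 2353 of ENST00000260408, with a fold of 12.98. Per kb they did not separate, with a ratio of ADAM10 to ADAM9 of 1.16 (0.803 to 1.65). MMP14, a membrane-anchored collagenase, had 16 tags (9.15 to 26.0) at nt 1088 to 1935 of ENST00000311852. Its density of 18.9 tags per kb was the lowest of the set, its fold was 5.64, and its score, 32.34, lay close to the minimum of 30 in the list.

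For the TGF-beta and BMP pathway, receptors and SMADs had peaks. TGFBR2, the ligand-binding TGF-beta receptor, had 33 tags (22.7 to 46.3), of which 18 lay at nt 425 to 1109 and 15 at nt 2221 to 2653 of ENST00000295754, with folds of 6.44 and 6.47. BMPR2, the type II BMP receptor, had 42 tags (30.3 to 56.8) at nt 537 to 2473 of ENST00000374580, with a fold of 8.10. SMAD3 had 76 tags (59.9 to 95.1) in 3 peaks between nt 2537 and 5492 of ENST00000327367, holding 34, 20 and 22 tags at folds of 12.16, 5.79 and 5.37. SMAD2, which like SMAD3 is phosphorylated by the TGF-beta receptor, had 16 tags (9.15 to 26.0) in a peak at nt 14611 to 15068 of ENST00000262160, with a fold of 8.68. In density TGFBR2 was not resolved from BMPR2, with a ratio of 1.36 (0.836 to 2.20). Nor was SMAD3 resolved from SMAD2, with a ratio of 0.897 (0.519 to 1.65). Of the 25 other TGF-beta and BMP genes in the fixed list, 7 had a peak, 28%, where 8.11% of all protein-coding symbols did. This list too was drawn up with earlier results known, EP300 among them, and its share is a description. The 7 included the coactivator gene EP300 (fold 35.89, 256 tags), the ubiquitin ligase genes SMURF1 (22, 79 tags) and SMURF2 (6.94, 70 tags), and the SMAD corepressor gene SKIL (12.16, 50 tags). LTBP3, a latent TGF-beta binding protein, had 11 tags and SKI, a corepressor related to SKIL, had 16, both at a fold of 5.79.

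On the inner side of integrins, of 25 focal adhesion genes 9 had a peak, 36%, led by fold by TLN1, which encodes talin (64.25, 286 tags). FLNA, a filamin that crosslinks actin, had 484 tags at a fold of 6.43. The adaptor gene CRK had 74 tags at 14.95, and FERMT2, the integrin activator kindlin-2, had 96 at 6.80. Of 31 proteoglycan, crosslinking and other matrix genes 2 had a peak, 6.45%, namely TNC, which encodes tenascin-C (fold 8.68, 90 tags), and PLOD2, a collagen lysyl hydroxylase (4.63, 18 tags). For comparison, 8.11% of all protein-coding symbols had a peak. These lists were also drawn up with earlier results known, TLN1 and VCL among them, so their shares are a description.

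In the KEGG pathways that the authors joined to the transcripts, 24 of the 26 genes had an entry. Among all genes with a peak, 26 of 1658 were from the present set. ECM-receptor interaction held 11 genes with a peak, of which 10 were from the set, 38.5% of the 26, and TNC was the other. The set was chosen by the symbols of collagens, laminins, integrins, FN1 and THBS, so its large part of this pathway follows from that choice. The counts for the other pathways below are likewise a description. Focal adhesion held 41 genes, 11 of them from the set. The TGF-beta signaling pathway held 15 with 5 from the set, axon guidance 23 with 5, and the Notch signaling pathway 9 with 2. Of the 27 genes of the adherens junction pathway, 3 came from the set, and these were SMAD2, SMAD3 and TGFBR2. The cadherin gene CDH4 was joined to the cell adhesion molecules pathway and not to this one.

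Fold and density ordered these genes differently. LAMC1, FN1, NRP1 and ADAM10 led by fold, whereas THBS1 led by density, and JAG1 and ADAM9 combined 40.3 and 34.0 tags per kb with folds of 5.79 and 4.17. Spearman's rho between density and fold was 0.505 over the 26 genes and 0.443 over the 1632 others, as a description of genes of the same library. The background count behind each fold is not in the table. Whole multiples of 0.5788, to a tolerance of 0.0051, made up the folds of 28 of these 44 peaks, 63.6%, against 70.2% in other genes. In 12 of the 26 genes every peak lay on a multiple, and their median fold was 8.10. In 11 genes, THBS1, FN1, ITGA6, NRP1, ADAM9 and ADAM10 among them, none did, and their median fold was 7.98.

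**Figure D4:**
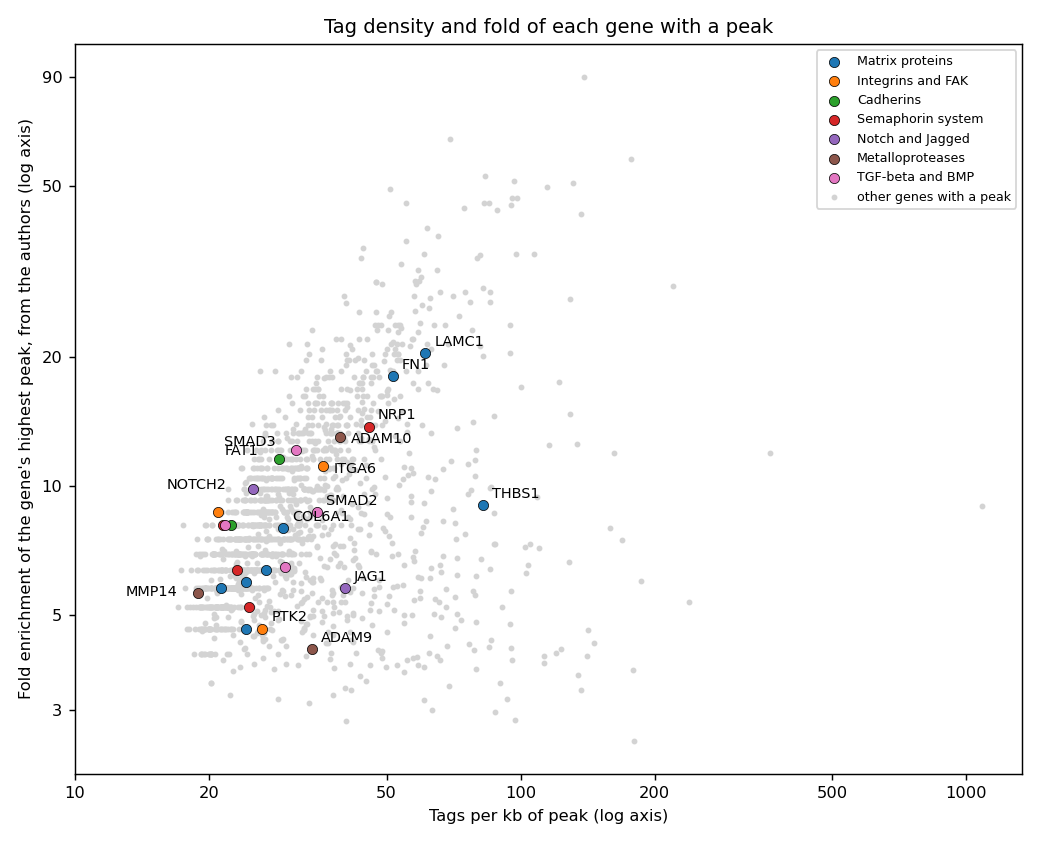
Density (tags per kb of peak) against the fold enrichment of the highest peak for each gene with a peak in the catenin IP, both on log axes; coloured points are the 26 genes by role and grey points the other 1632 genes. LAMC1 and FN1 lie at the top of the set, THBS1 lies far right at a fold of 9.04, and ADAM9 lies lowest at 4.17; the rows of points at fixed heights are the folds on multiples of 0.5788.

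Tags followed the length of transcript covered by peaks, with Spearman's rho of 0.966 over the 26 genes and 0.922 over the other genes. Between the listed transcripts of FN1, ITGA6, PTK2 and BMPR2, the longest peaks held the most tags. Tags did not always follow length in this way. The TGFBR2 transcripts had 33 and 31 tags on the same 1118 nt. In NRP1, ENST00000374867 had 98 tags on 2201 nt and ENST00000395995 had 69 on 2150 nt. FN1 had 10 listed transcripts, with 317 to 413 tags on peaks of 5942 to 8006 nt, and folds from 12.79 to 18. Each of them carried a single peak. ITGA6 had 5, with 94 to 139 tags on 2387 to 3860 nt. PTK2 had 7, with 31 or 34 tags, and BMPR2 had 3, with 29 to 42. In 12 of the 26 genes more than 1 transcript was listed, and whether the same reads were counted on several of them is not stated, so these values do not show which isoform was recovered.

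In 2 genes the listed transcripts differed in the number of peaks. FAT1 had the same 6 peaks and 176 tags on ENST00000441802 and ENST00000614102, while ENST00000509647 carried only a peak of 35 tags with a fold of 11.58. NRP1 had 2 peaks and 145 tags on each of ENST00000265371 and ENST00000374875, with highest folds of 13.75 and 14.59. ENST00000374867 and ENST00000395995 had only 1 peak each, with 98 and 69 tags. For COL4A1, COL6A1 and LAMB1, both listed transcripts gave identical tags and folds.

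**Figure D5:**
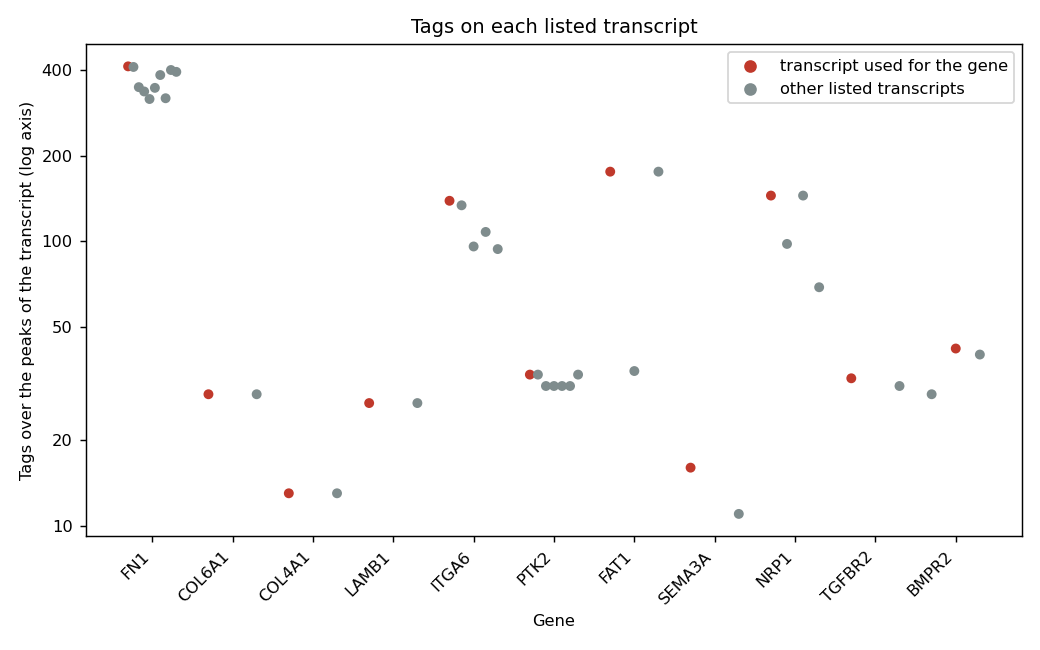
Tags over the peaks of every listed transcript for 11 of the 12 genes with more than 1, on a log axis; the red point is the transcript used for the gene. The transcripts of FN1 lie between 317 and 413 tags, those of NRP1 between 69 and 145, and a short FAT1 transcript lies at 35 beside 2 at 176.

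By the authors' region labels, 18 of the 44 peaks, 40.9%, were labelled coding sequence alone, against 39.7% of all 2440 peaks. A further 13, 29.5%, were labelled 3′ untranslated alone, against 28.2% of all peaks. Another 11, 25%, were labelled 3′ untranslated and coding, against 19.7% of all peaks. The last 2, 4.55%, were labelled 5′ untranslated and coding, against 8.65% of all peaks. The labels did not always fit the positions. In NOTCH2 and PLXNA2, 2 of 2 peaks labelled 3′ untranslated lay upstream of the coding peak of the same transcript, whereas in ITGA2 and TGFBR2 the 1 such peak lay downstream. The labels were therefore not used to place peaks.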

How the data were processed

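RNA of a catenin IP and of an input from MDA-MB-231 cells was sequenced, and 1 processed file, of the IP sample, was used. Per the labels' protocols, the RNA was sheared to about 300 to 500 bp. Per the submitters' processing notes the genome build was hg18, and whether the listed Ensembl transcripts belong to that build was not checked. The aligner, peak caller and background library were not given in the sources used here. Per the file headers, the authors' table holds peaks along Ensembl transcripts, with positions in nt from the transcript start, a tag count per peak and a fold enrichment, a ratio given by the authors' peak caller. A further deposited column has lost its name and is called the score. Its minimum is 30. It served only to filter peaks.

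Genes were chosen by symbol pattern, and for each symbol the transcript with the most summed tags was taken, with ties going to the lowest identifier. The members and gene lists were chosen with earlier results of these data known. The 26 genes were described by role, and a few individual genes are left out of the text. The design named no test, since each group has 1 library. Exact Poisson intervals (tags), Clopper-Pearson intervals (shares) and conditional binomial intervals (ratios of tags per kb) are at 95%. The tags carry no molecular identifiers and may repeat molecules. Shares used protein-coding symbols of the RefSeq table for the assembly GRCh38.p14, for names only. It held 1592 of the 1658 symbols, with 46 more under an older symbol. No transcript sequences were used here, so none are printed. Alternatives were score minimums of 50 and 100, a fold minimum of 4, other transcripts, the densest peak, stricter membership, and folds on or off the multiples. Python 3.11.15, pandas 2.3.3 and SciPy 1.17.1 were used.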

Additional observations from a re-analysis of the deposited data

How the results depend on the processing

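No paired analysis was possible because there is 1 library in each group. A score of at least 100 left 9 genes, 2.42% of the reference symbols of these families, with a median of 139 tags, 43.5 tags per kb and a fold of 12.16. At the same minimum, 3.21% of all protein-coding symbols remained with a peak. This setting removes genes with weak peaks by construction. Counting each listed transcript on its own gave 58 transcripts in place of 26 genes. Taking the transcript with the highest fold gave 167 tags for the integrins, because ITGA6 then had 108. A score of at least 50 left 19 genes, or 5.11%. Counts of genes were held to within 1.5 times the main count, and other values to the 95% interval of the main value. By these bounds 34 summary values under the alternatives run stayed and 7, all given above, did not. Of 26 single-gene tag counts 25 stayed, the exception being ITGA6. Some of these values could not have moved. In 14 of the 26 genes only 1 transcript was listed, so the choice by highest fold changed nothing there. The fold minimum of 4 could remove no gene, since the lowest gene fold was 4.17. The tally is therefore not a measure of robustness. Counting error limits many values: 14 of the 26 genes had fewer than 50 tags and 10 had fewer than 30, and the depth of the library is unknown.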
